A study of Mus musculus with 9 samples.

Results

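The glutathione and thioredoxin enzymes were followed across 9 dual-colour Agilent mouse arrays, as 61 genes, of 27566 gene names on the array, read by 100 of its 41174 probes. A probe was a member when its gene name in the scanner files of the Fzd8-CRD arrays began with Gsta, Gstk, Gstm, Gsto, Gstp, Gstt or Gstz and a digit, or with Gpx, Prdx, Txn or Glrx. Of these, 87 probes of 56 genes were well above background in the channel of the samples' RNA (Cy5) on 4 or more arrays and were tested. The other 5 genes, Gpx6, Nme8, Nxnl1, Txndc2 and Txndc8, had no such probe.

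Per the labels, the RNA came from tumours of MMTV-Wnt-1 and MMTV-Her2 mice, in which the mouse mammary tumour virus promoter drives the ligand Wnt-1 or the receptor Her2 in the mammary epithelium. Cells of both groups were freshly isolated and sorted for the absence of green fluorescent protein. One group of 5 arrays is labelled Fzd (here Fzd8-CRD, a Wnt inhibitor made of the part of the receptor Frizzled 8 that binds Wnt proteins) and one group of 4 arrays is labelled Control. The treatment text names the inhibitor for all 9 arrays, so what the controls received is unclear from the labels. Dose, time and the age of the mice are also not given there. Both tumour models are named for every array and could not be separated. Cy5 carries the sorted cells' RNA and Cy3 a pooled reference, and the labels describe that reference inconsistently, as mouse, as human or as a pool of strains.

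Cells remove hydrogen peroxide and lipid peroxides with glutathione peroxidases and peroxiredoxins. Peroxiredoxins are recharged by thioredoxin, which thioredoxin reductases regenerate with NADPH, while glutathione transferases couple glutathione to reactive compounds and glutaredoxins reduce mixed disulfides with glutathione. Many of these genes are known targets of the transcription factor Nrf2 (gene Nfe2l2), which acts through antioxidant response elements in promoters.

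Luminal and basal epithelial markers (8 of 8 each) were well above background on all 9 arrays. The median log2 ratio of the basal markers was 4.35 to 4.98 in Fzd8-CRD against 3.68 to 4.14 in control (3 of 8 rose), and that of the luminal markers 3.33 to 4.40 against 4.49 to 4.75 (1 of 8 fell). The part of these shifts in the members' differences was not tested. All 4 control arrays lay on 1 slide with 1 scan day, while those of Fzd8-CRD occupied 4 further slides with scans 367 or 378 days later, so slide, scan and treatment cannot be told apart. The share of all probes detected in Cy5 was 52.5% to 60.0% per array in Fzd8-CRD and 63.8% to 70.8% in control. Of 10 erythroid markers, 4 had a kept probe, and their summed Cy5 intensity was 479 to 1805 in Fzd8-CRD samples and 11116 to 856863 in control samples, highest in control replicate 2. Epb42, Klf1 and Ermap were among those without one. All 8 endothelial markers fell in Fzd8-CRD. The endothelial summed intensity was 1232 to 2967 against 5177 to 7794. Across 18265 genes, 1204 were higher and 1415 lower in Fzd8-CRD at an adjusted p under 0.05 (limma, Benjamini-Hochberg), and 1553 and 1213 with the scanner's own log ratio. That count of 2619 genes was 1505 without Fzd8-CRD replicate 1, 1339 without control replicate 3 and 1604 without control replicate 4.

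The probes on which the peroxiredoxin results turn are shown first, because 1 gene can give different answers through different probes. Each is a 60-base sequence printed on the array, given 5′ to 3′ in lower case with no part marked. Probes printed in part show the first 30 bases. Positions are those of the scanner files on mouse build mm8. The files do not say whether a probe lies in an exon or an untranslated region. The probes of Prdx1 (chr4:116190905-116191675, plus strand), Prdx5 (chr19:6974155-6974589, minus strand) and the second of Prdx2 (chr8:87860394-87860544, plus strand) cover 771, 435 and 151 bases of genome for 60 bases of probe. The other probes cover 60: Prdx3 at chr19:60918908-60918967 (minus), Prdx4 at chrX:150671055-150671114 (minus), Prdx2 at chr8:87860593-87860652 and chr8:87864269-87864328 (plus), and Prdx6 at chr1:163083948-163084007 and chr1:163077880-163077939 (minus).
Prdx1, whole probe: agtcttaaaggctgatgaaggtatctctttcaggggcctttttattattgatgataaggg
Prdx5, whole probe: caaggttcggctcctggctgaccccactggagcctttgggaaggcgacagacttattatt
Prdx3, first 30 bases: gcacatagcaccagcacttaatggaagctt
Prdx4, first 30 bases: actggggccaataaggattcctcttctttc
Prdx2 probe 1, first 30 bases: tgctagattttcctccactctctgaagggg
Prdx2 probe 2, whole probe: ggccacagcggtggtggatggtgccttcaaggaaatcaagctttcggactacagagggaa
Prdx2 probe 3, whole probe: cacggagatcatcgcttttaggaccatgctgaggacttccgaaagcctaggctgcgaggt
Prdx6 probe 1, first 30 bases: gacagccgggagaattcttacagggaatct
Prdx6 probe 2, whole probe: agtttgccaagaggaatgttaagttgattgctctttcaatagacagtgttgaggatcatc

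The comparison asked which of these enzymes differed between the sorted cells labelled Fzd and those labelled Control. Their RNA may include that of other cell types, since erythroid and endothelial markers were also detected. Each gene was read through its brightest kept probe, and a difference is the mean log2 Cy5/Cy3 ratio of Fzd8-CRD minus that of control. Peroxiredoxins were the family with most calls. Of the 56 genes tested, 8 fell (Prdx1, Prdx3, Prdx4, Prdx5, Prdx6b, Prdx6-ps2, Gsto2 and Txnl1), which is 14.3% against 7.75% of all genes tested. One gene rose, Gstm3, which is 1.79% against 6.59%. The median difference of the 56 genes was -0.21, against -0.07 over all genes, and 41 of the 56 differences lay below 0. The numbers of samples limit this: the count of 8 was 4 without Fzd8-CRD replicate 1 or without control replicate 4, and 5 without Fzd8-CRD replicate 2, Fzd8-CRD replicate 5 or control replicate 3. Over all genes tested, the 1415 lower were 849, 851, 1007, 922 and 715 in those fits, in the same order. With median centring in place of loess, limma called 0 members in either direction, with 9 lower and 2 higher at an unadjusted p under 0.05. In that setting it called 304 genes lower and 308 higher over all genes tested. With the most alike pair of arrays in each group averaged, 1 member fell and 0 rose (13 and 5 unadjusted). Over all genes, 213 fell and 125 rose there. The count of 1 higher was 3 without control replicate 2 and 0 without control replicate 3. All genes higher numbered 1204 with all arrays and 1348 and 624 in these fits. The labels call the samples replicates, but do not say which mice they came from, so p-values measure the spread between these samples. Among Fzd8-CRD arrays, replicate 1 was most alike to replicate 2 (correlation 0.976), while other pairs of that group had 0.892 to 0.935. For the controls, replicate 3 was nearest to replicate 4 (0.979), against 0.722 to 0.912 in the remaining pairs. Whether the arrays of such a pair share a tumour was not tested, so the independent samples may be fewer than 5 and 4.

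**Figure D1:**
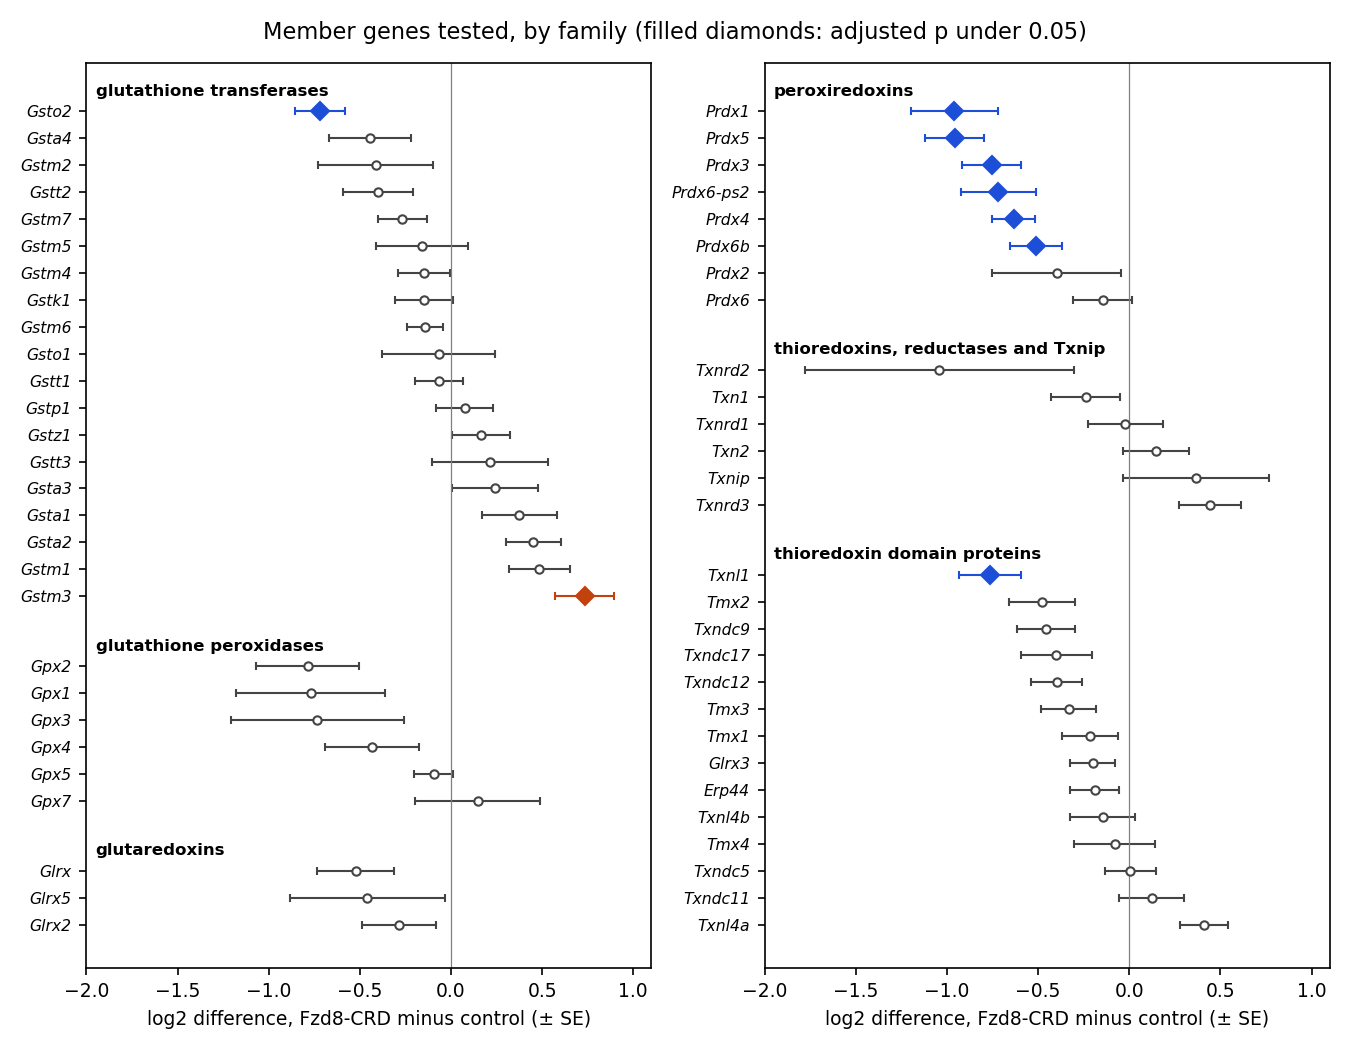
Log2 difference, Fzd8-CRD minus control, of the 56 member genes tested, grouped by family, with the standard error of the fit. Filled diamonds mark the 9 genes past the threshold (blue lower, orange higher); 6 of the 8 peroxiredoxins and no glutathione peroxidase or glutaredoxin are among them.

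Of the 8 peroxiredoxin genes tested, 6 fell and none rose, with a family median of -0.68, and all 8 differences were below 0. For 6 of them the 2 groups did not overlap, where 11.7% of all genes were lower in Fzd8-CRD without overlap. Prdx5, a peroxiredoxin found in mitochondria, peroxisomes and cytosol, had log2 ratios of -1.31, -0.97, -1.29, -1.28 and -1.51 in the Fzd8-CRD samples and -0.51, 0.08, -0.52 and -0.31 in the controls. Every Fzd8-CRD value lay below every control value, and Prdx5 fell by 0.96 on the log2 scale, a 1.94-fold difference (SE 0.16, adjusted p = 0.00805). Prdx1, the abundant cytosolic peroxiredoxin, was -0.90, -1.12, -0.65, -0.29 and -0.59 against 0.91, -0.20, 0.17 and 0.11. Fzd8-CRD replicate 4 and control replicate 2 came close to each other, and the fall of 0.96 (1.94-fold) had a larger standard error of 0.24 (adjusted p = 0.0289).

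Prdx3, the mitochondrial peroxiredoxin, was -1.24, -1.18, -1.60, -1.72 and -1.87 against -0.80, -0.64, -0.87 and -0.76. The controls lay within a narrow band above all Fzd8-CRD values, and Prdx3 fell by 0.76 (1.69-fold, SE 0.16, adjusted p = 0.017). Prdx4, which works in the endoplasmic reticulum, was -1.20, -1.30, -1.11, -1.17 and -1.40 against -0.58, -0.39, -0.66 and -0.77. The 5 Fzd8-CRD samples agreed closely (SD 0.11), and Prdx4 fell by 0.63 (1.55-fold, SE 0.12, adjusted p = 0.0108). A second, dimmer Prdx4 probe differed by -0.00 (adjusted p = 0.983 among all probes), so the mean of both probes missed the threshold (adjusted p = 0.0636).

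**Figure D2:**
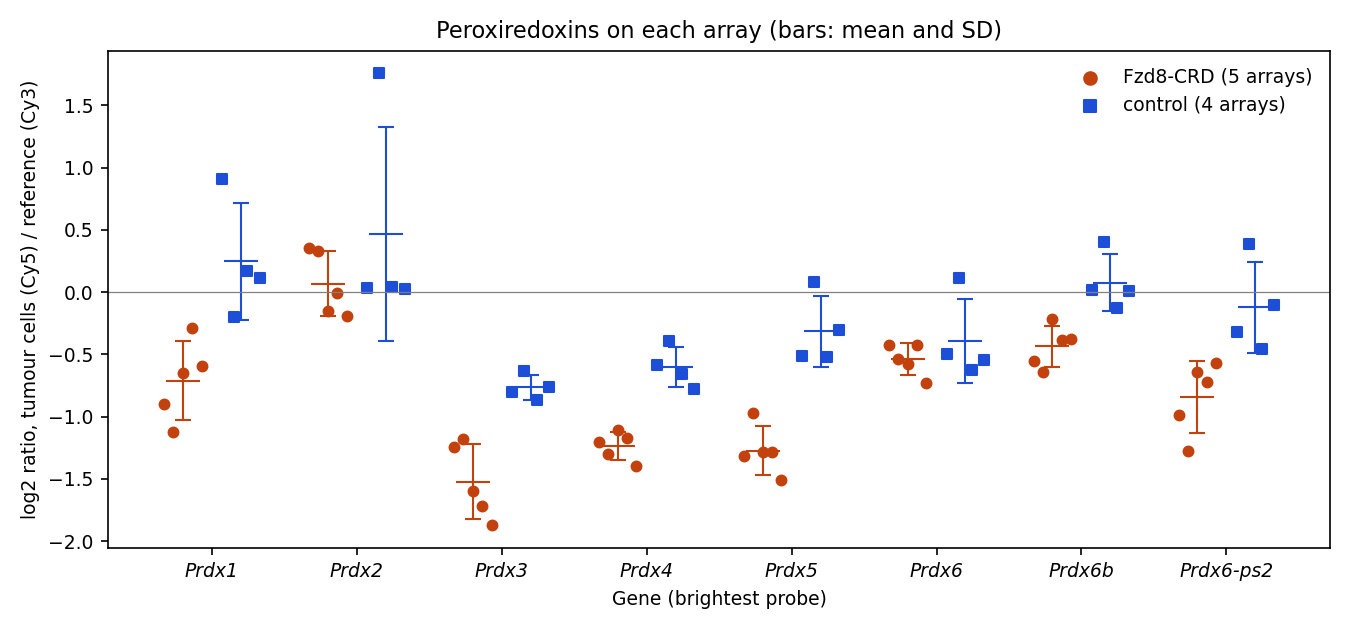
Log2 ratio of sorted cell RNA (Cy5) to reference RNA (Cy3) for the 8 peroxiredoxin genes on each array, with the mean and SD of each group. Prdx1, Prdx3, Prdx4, Prdx5, Prdx6b and Prdx6-ps2 show no overlap between the 5 Fzd8-CRD and the 4 control samples, while Prdx2 has 1 high control at 1.76.

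Prdx6b and Prdx6-ps2, sequences related to Prdx6 on chromosomes 2 and 4, also passed the threshold. Prdx6b ranged from -0.64 to -0.22 in Fzd8-CRD and from -0.13 to 0.40 in control, a fall of 0.51 (SE 0.14, adjusted p = 0.0423). Prdx6-ps2 ranged from -1.27 to -0.57 against -0.45 to 0.39, a fall of 0.72 (SE 0.21, adjusted p = 0.0468). Neither call was stable: Prdx6b stayed past the threshold in 1 and Prdx6-ps2 in 0 of 9 fits that each left out 1 sample, with differences of -0.58 to -0.40 and of -0.83 to -0.55. Whether RNA of Prdx6 itself binds these probes was not tested. The call of Prdx1 was lost without Fzd8-CRD replicate 1 (-0.91, adjusted p = 0.0688), Fzd8-CRD replicate 2 (-0.86, 0.0609), Fzd8-CRD replicate 5 (-0.99, 0.0517), control replicate 3 (-0.98, 0.0661) or control replicate 4 (-1.004, 0.056). Prdx3, Prdx4 and Prdx5 passed in all 9 such fits. With median centring Prdx1, Prdx3, Prdx4 and Prdx5 differed by -1.04, -0.66, -0.66 and -0.85 (adjusted p = 0.223, 0.102, 0.179 and 0.0616).

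Prdx2 and Prdx6 did not pass through their brightest probes but did through others, shown above. Prdx2 probe 1 read 0.35, 0.33, -0.15, -0.00 and -0.19 in Fzd8-CRD against 0.03, 1.76, 0.05 and 0.03 in control. Apart from control replicate 2 the groups overlapped, and the difference was -0.40 (SE 0.36, adjusted p = 0.452 among all probes). Prdx2 probe 2 read -0.38, -0.59, -1.05, -0.66 and -0.42 against 0.27, 1.47, 0.42 and 0.42. Here all controls lay above all Fzd8-CRD samples, and the probe fell by 1.26 (SE 0.25, adjusted p = 0.0133). Prdx2 probe 3, which starts 49 bases after the end of probe 2, read -0.36, -0.57, -0.68, -0.67 and -0.50 against 0.34, 1.70, 0.31 and 0.38 and fell by 1.24 (SE 0.28, adjusted p = 0.0186). Without control replicate 2, probes 2 and 3 still fell, by 0.99 and 0.90 (adjusted p = 0.00755 and 0.00339), while probe 1 differed by 0.03 (adjusted p = 0.903). In that fit 13 of all kept member probes fell and 3 rose, where 9.77% and 7.47% of all kept probes did.

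Prdx6, the peroxiredoxin that also has phospholipase activity, had 3 kept probes that disagreed in sign. Probe 1, the brightest, read between -0.73 and -0.42 in Fzd8-CRD and between -0.63 and 0.11 in control, a difference of -0.15 (adjusted p = 0.554 among all probes). Probe 2 read -1.24, -1.58, -1.08, -1.08 and -0.80 against -0.56, 0.26, -0.18 and 0.15. The groups did not overlap, and probe 2 fell by 1.08 (SE 0.20, adjusted p = 0.0114). The remaining kept probe differed by 0.10 (adjusted p = 0.739). With every kept probe tested on its own, 13 of the 87 member probes fell and 1 rose, where 7.84% and 6.77% of all kept probes did. Of the 22 member genes with several kept probes, 7 had probes that differed in sign and 6 had probes on both sides of the threshold. Which transcripts the probes read was not tested.

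The ratio joins 2 dyes, and Cy3 carries the reference RNA, so the fit was repeated on the quantile-normalized signal of each dye. In the Cy5 signal alone, 9 member genes fell and 1 rose, where 8.71% and 10.1% of all genes did. Prdx1, Prdx3, Prdx4 and Prdx5 were among those that fell, with differences of -1.02, -0.72, -0.78 and -0.67 (adjusted p = 0.0277, 0.0117, 0.00899 and 0.0149). Their Cy3 differences were -0.07, -0.03, -0.16 and 0.23 (adjusted p = 0.147, 0.49, 0.0364 and 0.00066), so Prdx4 and Prdx5 also differed in the reference dye. In Cy3 alone, 34 of the 56 member genes and 59.1% of all genes differed between the groups. Gstm3 differed by -0.02 in Cy5 and -0.81 in Cy3, Txnl1 by -0.16 and 0.55, Prdx6b by -0.07 and 0.34, Prdx6-ps2 by -0.35 and 0.31, and Gsto2 by -0.42 and 0.28. None of these 5 passed in Cy5 alone (adjusted p = 0.0627 for Gsto2 to 0.95 for Gstm3).

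**Figure D3:**
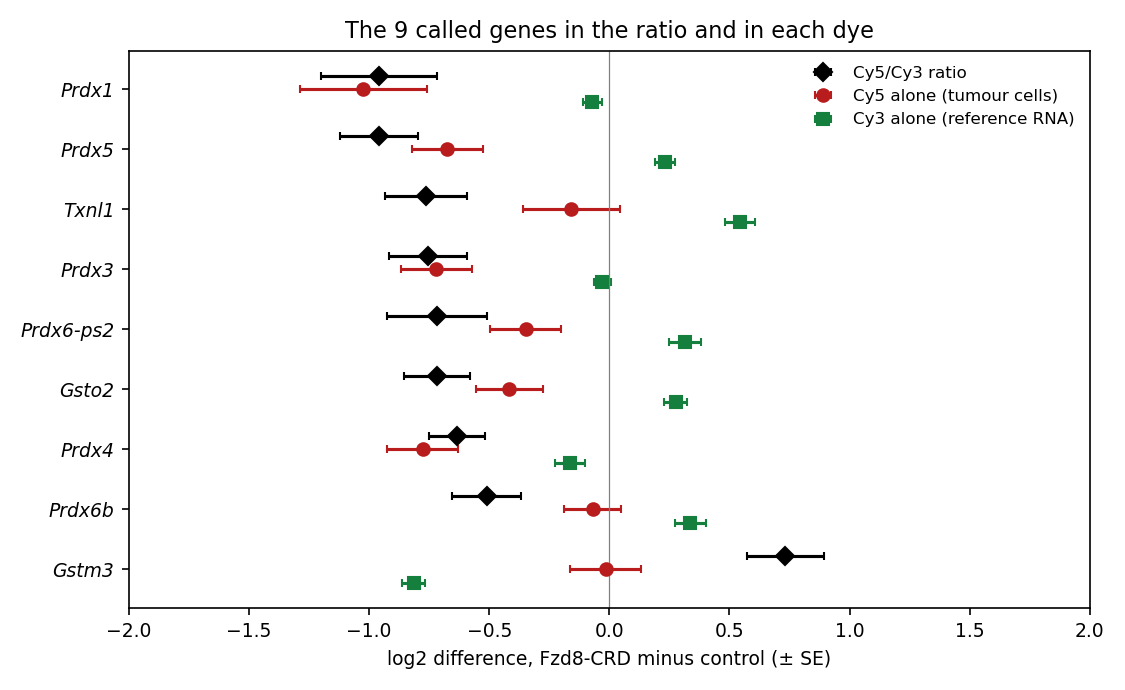
Difference between the groups for the 9 called member genes in the Cy5/Cy3 ratio, in Cy5 alone and in Cy3 alone, with standard errors. Prdx1, Prdx3 and Prdx4 differ more in Cy5 than in Cy3, where Prdx4 (-0.16) also passes the threshold. Gstm3 (-0.81), Txnl1 (0.55) and Prdx6b (0.34) differ mainly in Cy3.

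Control replicate 2 stood apart from the other 3 controls for several members, and it was also the control array with the highest erythroid, lymphocyte, macrophage and fibroblast markers. Gpx1 was 2.46 there and between 0.24 and 0.87 in the other controls. Glrx5, a mitochondrial glutaredoxin needed for iron-sulfur clusters and known for its role in red cell development, was 2.77 against 0.53 to 0.74. Txnrd2, the mitochondrial thioredoxin reductase, was 3.99 against 0.05 to 0.20. On the same array the median log2 ratio of the 4 erythroid markers was 6.74, against 2.76 to 3.62 in the other controls and 0.08 to 1.02 in Fzd8-CRD. Summed Cy5 intensity there was 6247 for the 8 lymphocyte markers (1197 to 1409 in the other controls), 3469 for the 8 macrophage markers (1501 to 1822) and 118375 for the 8 fibroblast markers (20151 to 73904). With all arrays Gpx1, Glrx5 and Txnrd2 differed by -0.77, -0.46 and -1.04 (adjusted p = 0.225, 0.474 and 0.348), and without control replicate 2 by -0.27, 0.08 and -0.08. Prdx1, Prdx3, Prdx4 and Prdx5 fell without it by 1.11, 0.71, 0.56 and 0.82 (adjusted p = 0.0182, 0.0266, 0.0124 and 0.00807). Without it, 7 member genes fell and 3 rose, where 9.54% and 7.38% of all genes did, and 7 of the 9 calls from all arrays were among these 10. Erythroid markers were still higher in each of the other 3 controls than in any Fzd8-CRD sample, and the part of these cell types in the peroxiredoxin differences was not tested. In bulk RNA, fewer cells of a type and less RNA per cell cannot be told apart.

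**Figure D4:**
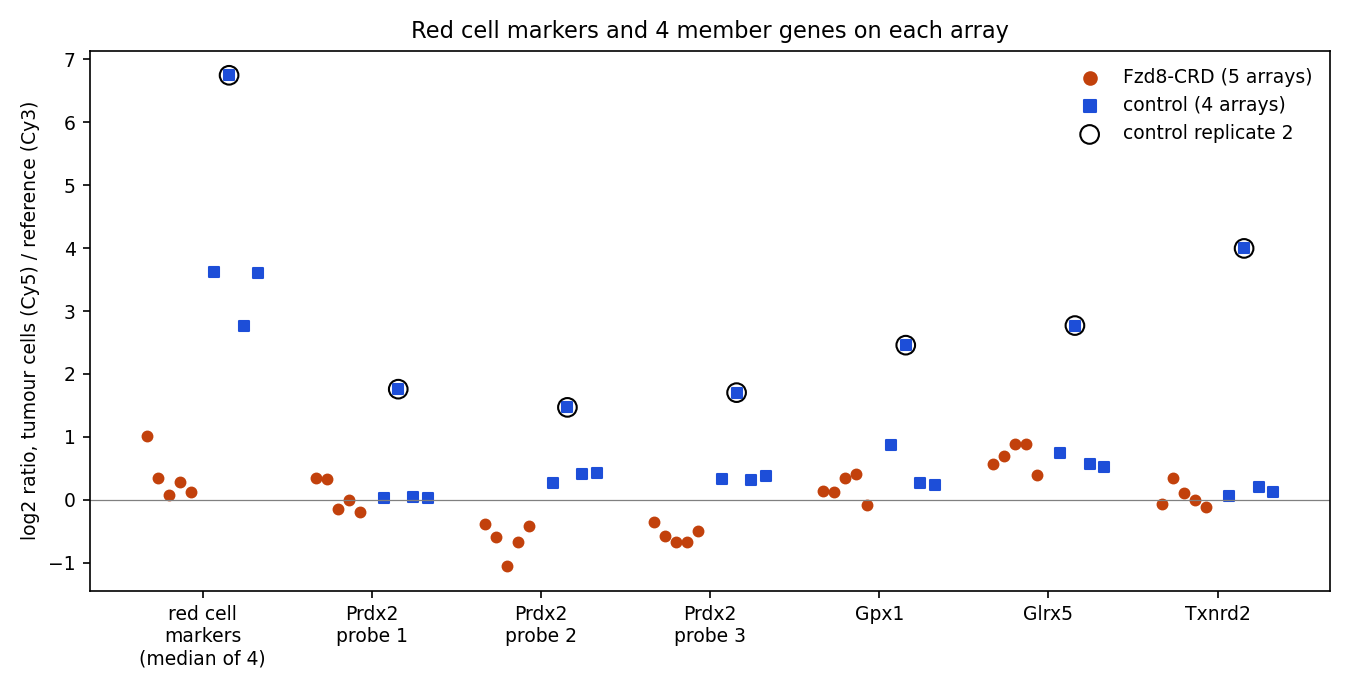
Log2 ratios on each array for the median of the 4 kept erythroid markers, the 3 Prdx2 probes, Gpx1, Glrx5 and Txnrd2, with control replicate 2 circled. That array is highest for all 7 readings, and Prdx2 probes 2 and 3 are lower in Fzd8-CRD than in the other 3 controls as well.

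Glutathione transferases showed little common movement. Of 19 genes tested, Gsto2 fell and Gstm3 rose, and the median difference was -0.07. Each call is 5.26% of the family, against 7.75% of all genes lower and 6.59% higher. Gsto2, an omega class enzyme that also reduces dehydroascorbate, was -1.70, -1.42, -1.33, -1.20 and -1.51 in Fzd8-CRD against -0.90, -0.48, -0.75 and -0.74 in control. The groups did not overlap, and Gsto2 fell by 0.72 (1.64-fold, SE 0.14, adjusted p = 0.0117). Gstm3, a mu class enzyme, was -1.25, -1.27, -1.44, -1.13 and -0.89 against -2.26, -1.61, -1.92 and -1.91. All Fzd8-CRD values were higher, by 0.73 (1.66-fold, SE 0.16, adjusted p = 0.0179), and the call was narrowly lost without control replicate 3 (0.73, adjusted p = 0.0505).

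The mu class did not move as 1 group: Gstm1 differed by 0.48 (adjusted p = 0.083) with no overlap between groups (as 7.91% of all genes, and 3 of the 56 members, were higher), and Gstm2 and Gstm7 by -0.41 and -0.27. In Cy5 alone Gstm1 was the 1 member that rose, by 0.68 (adjusted p = 0.0201). Of the alpha class, Gsta1, Gsta2 and Gsta3 differed by 0.37, 0.45 and 0.24 and Gsta4 by -0.45, and none passed. The probes of Gsta1 and Gsta2 overlap by 28 bases, of which 27 match, so the 2 readings may not be independent. Whether RNA of either gene binds the other's probe was not tested. The mismatch is in capitals below, and it is the only member pair of different genes whose probes share at least 20 bases with 90% or more identity.
Gsta1 probe, overlap: catgtatTcagaaggtattttagatctg
Gsta2 probe, overlap: catgtatAcagaaggtattttagatctg

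Among the remaining classes, Gstp1, the pi class enzyme abundant in many tumours, ranged from -2.07 to -1.42 against -2.09 to -1.61 and differed by 0.08 (SE 0.16, adjusted p = 0.761). Gstk1 was high against the reference in both groups (3.06 to 3.67 and 3.34 to 3.55) and differed by -0.15. Gsto1, the partner of Gsto2 in its class, split the Fzd8-CRD samples, at -0.21 and -0.15 in replicates 1 and 2 and 0.88, 1.15 and 0.96 in replicates 3 to 5, against 0.27 to 0.81 in control. Gstt1, Gstt2, Gstt3 and Gstz1 differed by -0.07, -0.40, 0.22 and 0.17, none past the threshold. In Fzd8-CRD, Gstm6 was not well above background in Cy5 on any array and passed the filter through the 4 control arrays. In Fzd8-CRD, Gsta2 was detected on 2 of 5 arrays and Gpx5 on 1 of 5.

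No glutathione peroxidase passed the threshold, although 5 of 6 tested had differences below 0 and the family median was -0.58. That median stayed below 0 in 23 of 24 alternatives, among them quantile normalization of mean intensity, which leaves the ratios unchanged. The exception was the scanner's own log ratio, at 0.05, so the direction depends in part on the normalization. With arrays scaled to each other, Gpx2, Gpx3 and Gpx7 differed by 0.96, 0.02 and 1.11. Gpx1, Gpx4 and Gpx5 differed there by -0.53, -0.16 and -0.08. With array weights, all but Gpx2 (-0.69) lay between -0.19 and 0.07. Gpx2, the epithelial peroxidase of the gut and a known Nrf2 target, read 3.98, 3.93, 3.45, 4.10 and 2.98 in Fzd8-CRD against 5.08, 3.96, 4.55 and 4.31 in control. The groups overlapped only through control replicate 2, and the difference was -0.79 (SE 0.28, adjusted p = 0.092), or -0.96 without that array (adjusted p = 0.0514). With arrays scaled to each other the Gpx2 difference was 0.96 (adjusted p = 0.186), and with the scanner's own log ratio 0.0661 (adjusted p = 0.867). Gpx3, the secreted plasma form, spread widely in Fzd8-CRD from 0.61 to 2.97 against 1.94 to 3.12 and differed by -0.73 (SE 0.47, adjusted p = 0.309). With the scanner's own log ratio Gpx3 was higher in Fzd8-CRD, by 1.78 (adjusted p = 0.00516), so its direction depends on the normalization. Gpx4, which reduces lipid peroxides in membranes, read 0.09 to 0.72 against 0.45 to 1.54 and differed by -0.43 (adjusted p = 0.275). Gpx5 differed by -0.0951, with 1 outlying spot left out on Fzd8-CRD replicate 4. Gpx7, a form of the endoplasmic reticulum, differed by 0.15.

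The thioredoxin core showed no call among 6 genes, with differences spread around 0 (median 0.06). Txn1, the cytosolic thioredoxin that recharges Prdx1 and Prdx2, read -0.44, -0.42, -0.59, -0.15 and -0.74 against 0.31, -0.31, -0.36 and -0.55. The ratios overlapped, with a difference of -0.24 (SE 0.19, adjusted p = 0.403). In Cy5 alone Txn1 fell by 0.98 (adjusted p = 0.0138), and in Cy3 it differed by -0.72. Txn2, its mitochondrial form, differed by 0.15 (adjusted p = 0.592). Txnrd1, the cytosolic reductase, differed by -0.02 (SE 0.21, adjusted p = 0.952), and Txnrd3 by 0.44 (adjusted p = 0.11). Txnip, the inhibitor that binds thioredoxin, ranged from -2.64 to -0.68 against -2.36 to -1.33 and differed by 0.37 (SE 0.40). Its 5 Fzd8-CRD values spanned more than the whole control range.

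The 3 genes grouped here as glutaredoxins, Glrx, Glrx2 and Glrx5, all had differences below 0 and none passed. Without control replicate 2, Glrx5 differed by 0.08. Glrx3, also a glutaredoxin, is named Txnl2 in the files and was grouped with the thioredoxin domain proteins. It differed by -0.20 (adjusted p = 0.293). Glrx, the cytosolic form, read -2.25, -2.13, -1.51, -1.77 and -1.53 against -1.56, -0.84, -1.43 and -1.43, a difference of -0.52 (SE 0.21, adjusted p = 0.121). Glrx2, a mitochondrial form, differed by -0.29 (adjusted p = 0.353).

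Among 14 other thioredoxin domain proteins tested, Txnl1, a thioredoxin-like protein bound to the proteasome, was the 1 gene called. That is 7.14% lower, near the 7.75% of all genes tested. It read -0.53, -0.50, -0.09, -0.23 and -0.64 against 0.53, 0.14, 0.11 and 0.68 and fell by 0.76 (1.70-fold, SE 0.17, adjusted p = 0.0194). The call was lost without Fzd8-CRD replicate 1 (-0.73, adjusted p = 0.0504) or control replicate 4 (-0.66, 0.0523), and a second probe differed by 0.18 (adjusted p = 0.32 among all probes). The median difference of the 14 genes was -0.21. Txndc12 and Tmx2, both of the endoplasmic reticulum, differed by -0.40 and -0.48 (adjusted p = 0.0865 and 0.104), and Txndc9 by -0.46 (adjusted p = 0.0848). A second Txndc9 probe did fall, by 0.57 (adjusted p = 0.00973). Txnl4a, a spliceosome component rather than a redox enzyme, had 1 probe at 0.41 and another that fell by 0.53 (adjusted p = 0.0159). Tmx2, Txndc9, Erp44 and Glrx3 fell in Cy5 alone (-0.69, -0.72, -0.48 and -0.51), with Cy3 differences of -0.26, -0.29, -0.34 and -0.33. Txndc5, a protein disulfide isomerase, differed by 0.01 (SE 0.14, adjusted p = 0.982).

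The enzymes that feed and regulate these families were read from 86 pathway genes, of which 83 were tested. Of these 6 rose and 11 fell (7.23% and 13.3%, against 6.59% and 7.75% of all genes), with a median of -0.21. Nfe2l2, which encodes Nrf2, was among those that rose. It read 0.65, 0.60, 0.85, 1.62 and 1.13 in Fzd8-CRD against -0.88, 0.14, -0.12 and 0.03 in control. The groups were apart by 1.18 on the log2 scale (2.26-fold, SE 0.27, adjusted p = 0.02), and Cy5 alone rose by 0.93 (adjusted p = 0.0305). Without control replicate 3 the difference was 1.205 (adjusted p = 0.0506), and with median centring it was 1.27 (adjusted p = 0.125). Keap1, the inhibitor of Nrf2, differed by 0.25 (adjusted p = 0.598). Of other Nrf2 targets, Nqo1 differed by 0.68 (adjusted p = 0.101) and Hmox1 by 0.06 (adjusted p = 0.954), while the ferritin light chain gene Ftl1 and the aldo-keto reductase gene Akr1b8 fell by 0.99 and 0.57 (adjusted p = 0.0483 and 0.031). Ftl1 and Akr1b8 stayed past the threshold in 2 and 4 of 9 fits that each left out 1 sample.

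In glutathione synthesis and turnover, the extreme values belonged to enzymes that break glutathione down. Chac1, which cleaves glutathione in the cytosol, read -2.85, -3.14, -1.61, -2.84 and -2.49 in Fzd8-CRD against 1.58, -0.67, -0.34 and -0.76 in control. It fell by 2.54 (5.81-fold, SE 0.49, adjusted p = 0.0123), with control replicate 1 far above the other controls, and its difference was -2.78 to -1.996 over the 9 fits that left out 1 sample. With median centring Chac1 differed by -2.47 (adjusted p = 0.0628). Ggt5, a cell surface enzyme that cleaves glutathione conjugates, read 3.85, 3.94, 2.43, 3.40 and 3.24 against 1.78, 1.77, 2.02 and 1.76. The controls were nearly equal, and Ggt5 rose by 1.54 (2.91-fold, SE 0.28, adjusted p = 0.00989), and by 1.61 with median centring (adjusted p = 0.0176). Slc3a2, the heavy chain of the cystine transporter, fell by 0.62 (adjusted p = 0.0305), and its partner Slc7a11 differed by -0.85 (adjusted p = 0.137). Slc3a2 stayed past the threshold in 4 of the 9 fits that left out 1 sample. The synthesis enzymes Gclc, Gclm and Gss and the reductase Gsr differed by 0.36, -0.56, -0.65 and -0.39, none past the threshold (adjusted p = 0.114 to 0.505).

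Of the NADPH and repair genes, Idh2, which makes NADPH in mitochondria, fell by 1.02 (2.03-fold, SE 0.21, adjusted p = 0.0156) and the pentose phosphate enzyme gene Taldo1 by 0.91 (adjusted p = 0.0395). Idh2 stayed past the threshold in 9 and Taldo1 in 3 of 9 fits that each left out 1 sample. H6pd, which makes NADPH in the endoplasmic reticulum, rose by 0.67 (adjusted p = 0.0143). Srxn1, the sulfiredoxin that repairs overoxidised peroxiredoxins, read 0.05, 0.70, 2.49, 2.64 and 2.80 in Fzd8-CRD against 1.12, 0.71, 1.34 and 1.51. It split the treated samples as Gsto1 did, with replicates 1 and 2 low, and the difference was 0.57 (SE 0.57, adjusted p = 0.511). The ribonucleotide reductase genes Rrm1 and Rrm2, whose enzyme takes electrons from thioredoxin and glutaredoxin, fell by 0.69 and 0.98 (adjusted p = 0.0458 and 0.00775). Rrm1 stayed past the threshold in 1 and Rrm2 in 9 of the 9 fits that each left out 1 sample. Of the membrane relatives of the transferases, Mgst3, Ltc4s and Alox5ap fell by 0.67, 0.41 and 1.58 (adjusted p = 0.0379, 0.0484 and 0.0196). Mgst3 stayed past the threshold in 2 of those 9 fits, Ltc4s in 1 and Alox5ap in 9. Ltc4s and Alox5ap serve leukotriene synthesis and are expressed in myeloid cells. The 8 macrophage markers had a summed Cy5 intensity of 1226 to 1761 in Fzd8-CRD against 1501 to 3469 in control, and their part in this was not tested.

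Of the selenoprotein genes, Sepsecs and Secisbp2, which place selenocysteine into enzymes such as the glutathione peroxidases and thioredoxin reductases, rose by 0.52 and 0.58 (adjusted p = 0.0211 and 0.0232). Sepsecs stayed past the threshold in 8 and Secisbp2 in 4 of 9 fits that each left out 1 sample. Neither rose in Cy5 alone (0.25 and 0.20, adjusted p = 0.184 and 0.447), and Sepsecs differed by -0.22 when only probes above background on all 9 arrays were used. Msrb1, a selenoprotein that repairs oxidised methionine, rose by 0.79 (1.73-fold, adjusted p = 0.0232) and by 0.84 in Cy5 alone (adjusted p = 0.0251). The counts depended on single samples. With median centring 3 pathway genes fell and 2 rose, where 304 and 308 of all genes did. The 11 pathway genes that fell were 4 without Fzd8-CRD replicate 1 or 5, 5 without Fzd8-CRD replicate 4 or control replicate 3, 6 without Fzd8-CRD replicate 2 or 3, and 7 without control replicate 4. Over all genes, the 1415 lower were 715 to 1178 in these fits. The 6 that rose were 3 without control replicate 3, where the 1204 higher over all genes were 624.

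**Figure D5:**
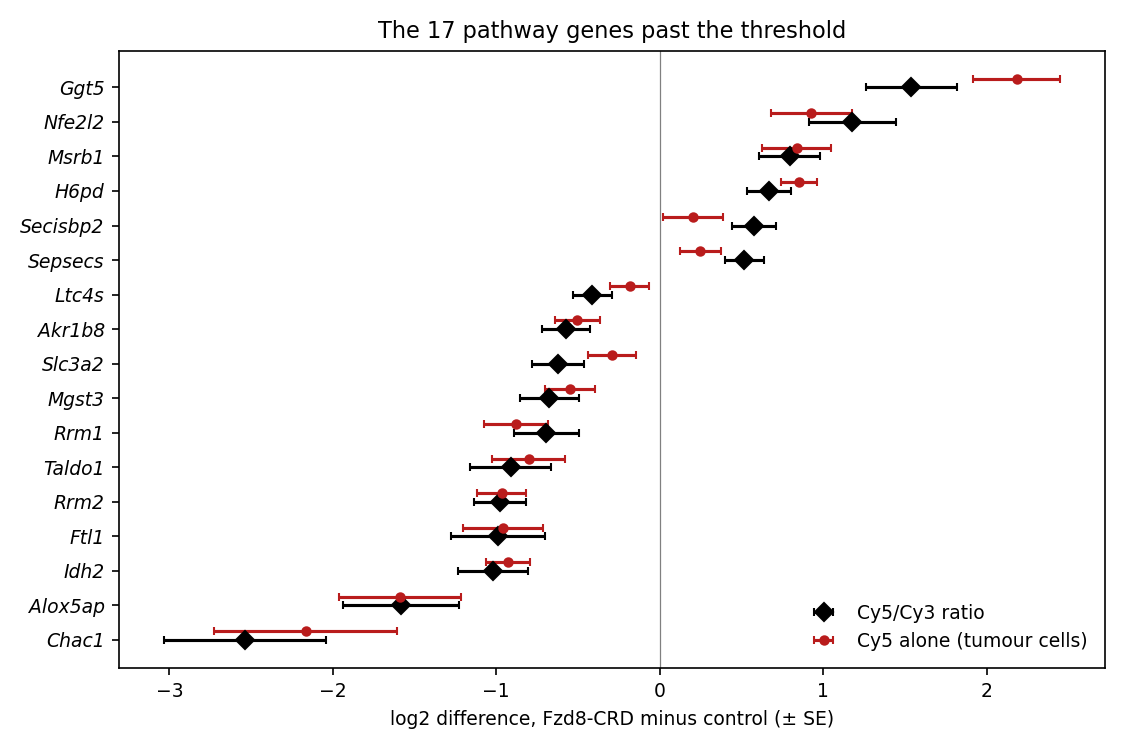
Difference between the groups for the 17 pathway genes past the threshold, in the Cy5/Cy3 ratio and in Cy5 alone, with standard errors. Chac1 lies lowest at -2.54 and Ggt5 highest at 1.54, and the ratio and Cy5 alone have the same sign for all 17.

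Because Nfe2l2 rose while Prdx1 fell, the promoters were searched for the core of the antioxidant response element, TGACNNNGC, on both strands in the 250 bases before each gene start (RefSeq, GRCm38.p6). Of 53 member genes with a promoter sequence, 9 (16.98%) held a match, against 11.5% of all genes. Some genes have several starts. Counted by window, 9 of 76 member windows (11.8%) held a match, against 10.2% of all windows. Of the 5 peroxiredoxin genes with a promoter sequence, Prdx1 was the 1 with a match, which begins 133 bases before the start. The 250 bases are chr4:116685349-116685598 on the plus strand, with the match in capitals as the reverse complement of the searched letters.
Prdx1 promoter: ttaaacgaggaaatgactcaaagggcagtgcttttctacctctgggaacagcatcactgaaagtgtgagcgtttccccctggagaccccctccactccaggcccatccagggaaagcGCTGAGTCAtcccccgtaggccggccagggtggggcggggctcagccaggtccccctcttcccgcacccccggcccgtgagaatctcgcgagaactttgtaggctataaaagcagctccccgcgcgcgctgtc

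The windows below, each of 41 bases, come from a reductase and 3 transferases whose ratios did not pass the threshold and are shown for comparison. They lie at chr10:82859098-82859138 (Txnrd1, plus), chr1:21240448-21240488 (Gsta3, plus), chr3:107895796-107895836 (Gstm5, plus) and chr3:107931719-107931759 (Gstm7, minus), with the match in capitals.
Txnrd1: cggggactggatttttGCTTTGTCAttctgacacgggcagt
Gsta3: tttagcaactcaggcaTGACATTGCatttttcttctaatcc
Gstm5: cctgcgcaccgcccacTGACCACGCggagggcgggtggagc
Gstm7: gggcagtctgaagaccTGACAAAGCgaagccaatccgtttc
The ratios of these 4 genes differed by -0.02, 0.24, -0.16 and -0.27, so genes with a match included 1 that fell and 4 shown here that were not called. A match describes letters in this window and says nothing of binding.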

How the data were processed

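RNA of 5 Fzd8-CRD and 4 control samples was measured against a Cy3 reference. Per the file headers, Feature Extraction 9.5.3.1 gave each spot's foreground and local background as linear intensity values. It also gave a log10 ratio per spot, which per the file headers is corrected for background and dye. A linear ratio for each array stands in the deposited table of the series. The log2 of that ratio matched the scanner's log ratio at r of at least 0.999995, so its scale and direction are settled, and its column medians were 0.833 to 0.954.

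Background was corrected with normexp (offset 50) and ratios normalized by loess without control spots in limma 3.58.1 (R 4.3.3, data.table version 1.17.8). Over all arrays, 1229 outlying spots were left out, and 0 were saturated. The filter kept 26835 probes detected well above background in Cy5 on 4 or more arrays, and each gene was read through its brightest kept probe. The offset understates differences of dim genes. The test was limma's (lmFit and eBayes), with p-values adjusted by Benjamini-Hochberg over all 18265 genes, or over all kept probes where stated, and a threshold of 0.05. The script was tested on simulated data. Probes were named through RefSeq accessions, symbols or synonyms, and 12 member genes carry a newer symbol than in the files. Every member may be named, as are all members past the threshold, the pathway genes past it and 10 further pathway genes. The members and lists were chosen with earlier results of these data known. The alternatives covered background correction, normalization, each dye, the filter, the choice of probe, array weights, slide and leaving out each sample. The number of arrays limits the precision.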

Additional observations from a re-analysis of the deposited data

Results flagged for a closer look

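Among 112 sets of arrays (56 member genes in each group), 10 held 1 array far from the others, where chance gives about 1 in 20. Control replicate 2 was high for Prdx2 (1.76), Txnrd2 (3.99) and Glrx5 (2.77) and low for Tmx3 (-0.13). Control replicate 1 was low for Gstm1 (-1.77) and Tmx2 (-1.27). In Fzd8-CRD, replicate 5 was high for Gsta4 (-0.997) and low for Gpx4 (0.086), replicate 4 was high for Txnl4a (1.48) and replicate 3 low for Gstm5 (0.24).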

How the results depend on the processing

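No paired analysis was possible because the labels give no replicate numbers. The numbers used here follow the order of the samples within each group and pair nothing between the groups. The median difference of the members kept its sign in all 24 alternatives and moved beyond the spread between arrays when arrays were scaled to each other (-0.31). Of these alternatives, quantile normalization of mean intensity leaves the ratios unchanged, so its agreement was fixed in advance. The deposited table largely repeats the scanner's log ratio. Genes changed numbered 612 with median centring in place of loess, 1610 with scaling, 6754 with array weights, 5500 with slide as a random block and 338 with the most alike pair of each group averaged. In that order, member genes that fell numbered 0, 8, 14, 13 and 1, those that rose 0, 0, 5, 5 and 0, pathway genes that fell 3, 6, 21, 17 and 1, and pathway genes that rose 2, 6, 12, 11 and 0. The slide block had a consensus correlation of -0.168, which narrows the error of the group difference because each slide lies within 1 group. Array weights ran from 0.19 (control replicate 2) to 4.23 (control replicate 3). The larger counts of these fits therefore do not strengthen the calls. With the scanner's log ratio or the deposited table, 5 member genes fell, 2 rose and 5 pathway genes fell. Without background correction 2 member genes rose, and with the mean of a gene's probes 2 pathway genes rose. Leaving out 1 sample gave 1339 to 3091 genes changed, 4 to 8 members lower, 0 to 3 higher, 4 to 11 pathway genes lower and 3 to 8 higher. Of the 56 member genes, 28 turned sign in 1 or more alternatives, 1 of them past the threshold with all arrays. Among the genes past it, members and pathway together, the values that turned sign were Gstm3 in Cy5 alone (-0.0151) and Sepsecs with probes above background on all arrays (-0.22) or the mean of its probes (-0.0359). Peroxiredoxins numbered 0 to 8 lower over the alternatives, with a family median between -0.97 and -0.56. The 8 came only from testing each probe on its own, where Prdx2 and Prdx6 passed through probes other than their brightest. All other alternatives gave at most 6. The cause of these changes was not tested.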
